A study of Homo sapiens with 8 samples.

Results

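The data are the 2 of 8 two-colour arrays of the series that carried MDA-MB-231 cells in which GINS1 was targeted with a small interfering RNA (siRNA). The arrays were chosen by their labels, si-GINS1_1 and si-GINS1_2, each of which names a different siRNA. On each array the siRNA-transfected RNA was labelled with Cy5 (red) and the mock RNA with Cy3 (green). MDA-MB-231 is an established human breast cancer line of the triple-negative, mesenchymal type. The labels give the transfection reagent as Lipofectamine RNAiMAX, and describe the mock cells both as mock and as having had no transfection, so whether they met the reagent is not given. No control siRNA was among the samples, and neither a dose nor a harvest time was stated. The other 6 arrays served as the check for dye and transfection effects. They carried miR-139-5p or miR-139-3p in the renal cancer lines A498 and 786-O, and miR-490-5p or miR-490-3p in the colorectal cancer line HCT116, again with Cy5 for the transfected cells and Cy3 for the mock cells of the same line. The dyes were never swapped, so a dye offset that is alike on all 8 arrays would appear on the other 6 arrays too.

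GINS1 (PSF1) is a subunit of GINS, the 4-subunit ring that joins CDC45 and the MCM2 to MCM7 hexamer to form the replicative helicase known as CMG. This helicase unwinds DNA ahead of the polymerases, and it is assembled at licensed origins when S phase begins. Genes of DNA replication are mostly driven by E2F factors and are expressed strongly in dividing tumour cells. The question was which genes and pathways moved in the same direction with both siRNAs.

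Values are log2 ratios of transfected over mock signal after intensity-dependent (loess) normalisation, and 1 log2 unit is a doubling or a halving. They are given for si-GINS1_1 first and si-GINS1_2 second. A gene is represented by its brightest probe, and 20878 genes had a probe well above background in at least 1 channel on both siRNA arrays. Signal on the other 6 arrays was not required. For a gene near background there, those arrays cannot show a dye offset. Their median log2 ratio was 0.01 on the first array and 0.00319 on the second. Differences were tested with limma across all probes, first as the mean of both siRNA arrays against mock, and then as that mean minus the other 6 arrays. A gene passed where the Benjamini-Hochberg adjusted p was under 0.05. The labels do not say whether both arrays received the same mock extract. The mock signals of the pair differed with an SD of 0.0732 log2 units over 25822 probes, and 0 probes differed by 1 unit or more, so a deviation of a shared mock extract would appear on both arrays as a shared response. The labels name no separate cultures, and the p-values therefore measure only the spread among these arrays, not that among repeated cultures. Against mock, this spread came from the difference between the siRNAs and, for each miR-139 strand, from that between A498 and 786-O. It thus held differences of siRNA and of renal cell line besides any technical spread. The limma SEs given below for means against mock rest on the same spread. In the comparison with the other 6 arrays, the effect of GINS1 siRNA cannot be told apart from that of the cell line.

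Markers of cell type were read beside the cell line label. Of the mesenchymal breast markers, 7 of 8 lay well above background in the mock channel of both arrays (VIM, CD44, MSN, CAV1, ANXA1, AXL and EGFR). The other lines were not compared, so these markers cannot tell MDA-MB-231 from them. Of 6 colorectal markers 3 passed the filter on background on both siRNA arrays. CDX1 and GPA33 were above background in both mock channels, whereas CDX2, VIL1 and CDH17 did not pass the filter. Some markers of other cell types were detected, with 3 of 5 luminal breast, 2 of 6 colorectal, 2 of 5 renal, 2 of 5 blood, 2 of 3 endothelial and 3 of 4 fibroblast markers above background in both mock channels. Of these, CD14, a monocyte co-receptor, fell with both siRNAs, at -1.18 and -1.20 against -0.06 to 0.21 on the other 6 arrays. GPA33, an intestinal surface antigen, was at -0.46 and -0.36 against -0.04 to 0.03, and since its siRNA channel was not well above background the decrease was at least 1.33-fold. PDGFRB, a pericyte and fibroblast receptor, was below mock on all 8 arrays. Its values of -1.08 and -1.04 passed the test against mock, but it lay between -1.06 and -0.82 on the other 6 arrays and did not pass the comparison with them (limma adjusted p = 0.57).

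GINS1 mRNA was reduced by both siRNAs. Its log2 ratios were -1.31 and -1.92, a mean decrease of 3.06-fold. On the other 6 arrays they ran from -0.11 through a median of 0.16 to 0.55, so the siRNA arrays did not overlap with any of them. By limma the mean against mock was -1.61 ± 0.15 (SE, n = 2, adjusted p = 0.0174), and the difference from the other 6 arrays was -1.81 (adjusted p = 0.00492). An exact two-sided permutation test of 2 against 6 arrays gave p = 0.0714, the smallest value this design allows. The probe lies at chr20:25429111-25429170 of hg19, and no other probe for GINS1 was tested. In the mock channel of both arrays its normalised log2 signal was 9.09 and 9.16, and in the siRNA channel 7.78 and 7.24. With the scanner software's own log ratios the adjusted p against mock was 0.056, and with only the 2 siRNA arrays in the fit it was 0.523.

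Against mock, 812 genes were lower (3.89% of those tested) and 749 were higher (3.59%). Among them, 644 of the lower and 528 of the higher genes lay outside the range of the other 6 arrays on both siRNA arrays, whereas 168 and 221 lay inside it on at least 1 array. On all 8 arrays the sign was the same for 95 of the lower and 142 of the higher genes. Minus the other 6 arrays, 493 genes were lower (2.36%) and 294 higher (1.41%). A size rule was also applied, requiring at least 0.5 log2 units in the same direction on both arrays and a value beyond all of the other 6 arrays. It left 333 genes lower (1.59%) and 185 higher (0.886%), and the plot of both arrays shows where they lie. At 1 log2 unit the numbers were 48 and 10.

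These totals depended on the scaling. With the array median centred in place of the loess curve, the median gene moved to 0.21 and 0.08, and the size rule gave 106 lower and 1075 higher genes. In the same setting 9.58% of the probes called against mock were lower, in place of 52.2%. Values given below for median centring include this shift of the median gene unless stated. With only the 2 siRNA arrays in the fit no probe was called against mock (0 of 27796, with 2541 at an unadjusted p under 0.05), and with the scanner software's log ratios 75 probes were called in place of 1934.

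**Figure D1:**
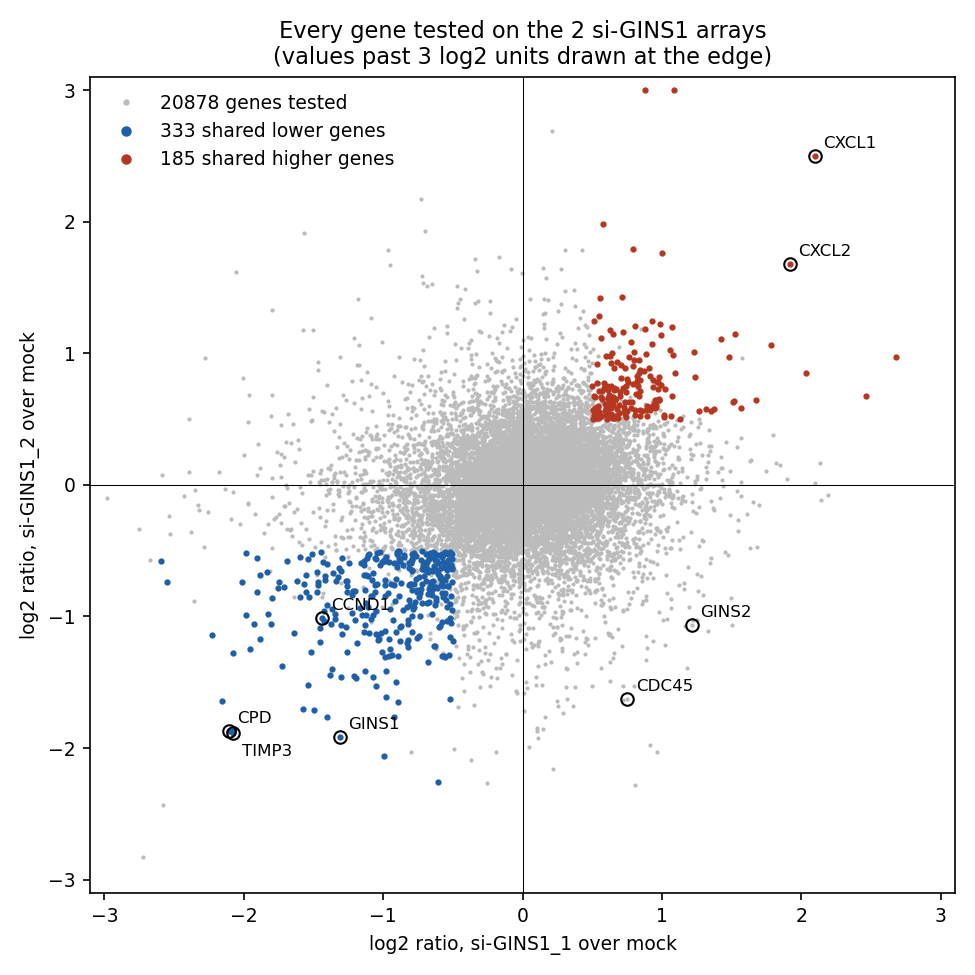
Each of the 20878 genes tested by its log2 ratio against mock with si-GINS1_1 (horizontal) and si-GINS1_2 (vertical). Blue points are the 333 shared lower and red points the 185 shared higher genes, and the 8 circled genes are named. GINS2 and CDC45 lie to the right of 0 and below 0, on opposite sides with the 2 siRNAs, while 2 genes past the axis limit of 3 are drawn at the edge.

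Of the genes that fell, TIMP3 and LBR stood farthest from the other 6 arrays. TIMP3, a secreted inhibitor of matrix metalloproteinases that binds the extracellular matrix, was at -2.07 and -1.89, and between -0.02 and 0.04 on the other 6 arrays. By limma its difference from them was -1.997 (adjusted p = 1.79e-05). Genes named by rank had to pass against mock and lie outside the range of the other 6 arrays, and were ordered by distance from them. Their p-values and separation are therefore not independent of that choice. Signal for TIMP3 was not required on those arrays. The decrease was 3.95-fold on average, and its probe lies at chr22:33258540-33258599. LBR, the lamin B receptor that holds heterochromatin at the inner nuclear membrane and also acts in sterol reduction, was at -2.07 and -1.86 against 0.01 to 0.36. CPD, a membrane carboxypeptidase of the trans-Golgi, had the lowest mean of the 24 genes named by rank. Its values were -2.11 and -1.87, while the other 6 arrays also lay below mock, from -0.66 to -0.22. The 3 genes were thus separated from every other array by more than 1 log2 unit.

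The next genes in this order encode membrane proteins and signalling adaptors. SLC26A2, a sulfate transporter, was at -1.54 and -1.52, and at -0.32 to 0.45 on the other 6 arrays. KCTD12, an auxiliary subunit of GABA-B receptors, was at -1.40 and -1.76 against -0.20 to 0.30, and a second probe averaged -1.75. PTPRJ, a receptor tyrosine phosphatase, was at -1.49 and -1.71 against -0.59 to -0.04. As the rule for naming required, both siRNA arrays were below all the others for each of them. PLEKHG4, a guanine nucleotide exchange factor, was at -1.57 and -1.70, but one of the other arrays reached -1.05. CASK, a scaffold kinase of cell junctions, was at -1.72 and -1.38, whereas its 2 other probes averaged -0.07 and 0.01. MBP, the gene of myelin basic protein, also read differently by probe. The brightest gave -1.96 and -1.25 and the other averaged 0.58, so the decrease of CASK and MBP was seen with 1 probe each. The non-coding RNAs lnc-AC016745.1-2 (-1.36 and -1.40) and AQP5-AS1 (-1.38 and -1.45) complete the 12 genes, and both stayed between -0.08 and 0.20 on the other 6 arrays.

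**Figure D2:**
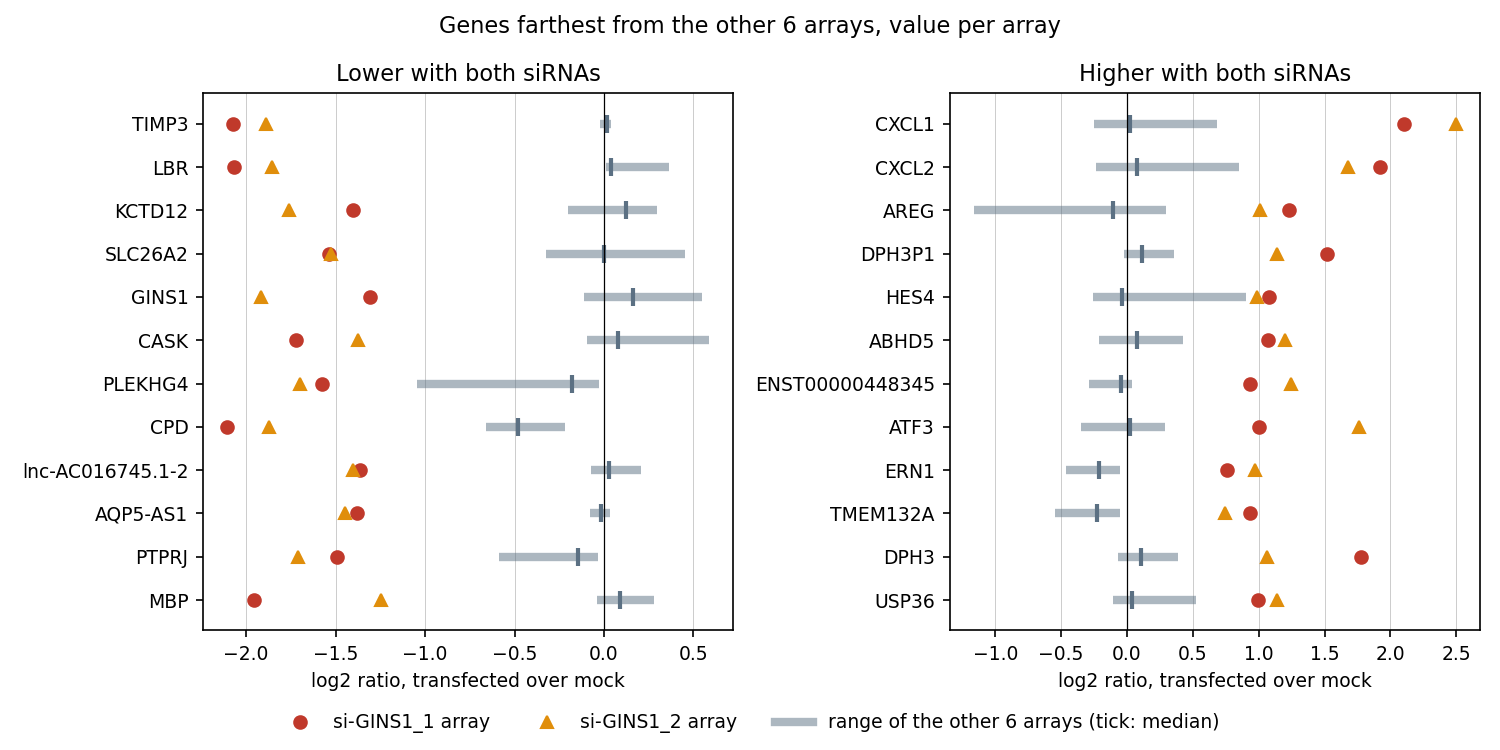
Log2 ratio against mock for the 12 lower and 12 higher genes farthest from the other 6 arrays, with si-GINS1_1 as circles, si-GINS1_2 as triangles and grey bars for the range of the other 6 arrays. No siRNA value falls inside a bar, because the genes were chosen to lie outside it. HES4 comes closest, with 0.98 beside a highest other array of 0.90.

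Among the genes that rose, the chemokines CXCL1 and CXCL2 led. Both encode secreted ligands of CXCR2 that attract neutrophils. CXCL1 was at 2.10 and 2.49, against -0.25 to 0.69 on the other 6 arrays. By limma its mean against mock was 2.30 ± 0.17 (SE, n = 2, adjusted p = 0.0149), a 4.91-fold increase, and its difference from the other 6 arrays was 2.17 (adjusted p = 0.00673). CXCL2 was at 1.92 and 1.68 against -0.23 to 0.85, an increase of 3.47-fold. Both genes have a second probe, and these averaged 1.27 and 1.102.

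The promoters of CXCL1, CXCL2, CXCL3 and TNFAIP3 are shown because they carry the kappaB consensus, the element that NF-kB dimers bind. The 250 bases before the transcription start are from RefSeq (GRCh38.p14), 5′ to 3′ on the strand of the gene, and capitals mark the kappaB consensus.
CXCL1, chr4:73869143-73869392, plus strand: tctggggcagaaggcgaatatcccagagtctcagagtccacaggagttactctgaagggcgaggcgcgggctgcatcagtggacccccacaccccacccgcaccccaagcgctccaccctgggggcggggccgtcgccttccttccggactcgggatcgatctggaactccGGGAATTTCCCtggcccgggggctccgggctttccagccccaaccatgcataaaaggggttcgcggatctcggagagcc
CXCL2, chr4:74099196-74099445, minus strand: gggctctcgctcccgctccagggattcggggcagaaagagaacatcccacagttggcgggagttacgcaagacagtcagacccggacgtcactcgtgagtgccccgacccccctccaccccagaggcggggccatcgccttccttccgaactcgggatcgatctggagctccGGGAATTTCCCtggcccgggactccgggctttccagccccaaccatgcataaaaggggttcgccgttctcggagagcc
CXCL3, chr4:74038690-74038939, minus strand: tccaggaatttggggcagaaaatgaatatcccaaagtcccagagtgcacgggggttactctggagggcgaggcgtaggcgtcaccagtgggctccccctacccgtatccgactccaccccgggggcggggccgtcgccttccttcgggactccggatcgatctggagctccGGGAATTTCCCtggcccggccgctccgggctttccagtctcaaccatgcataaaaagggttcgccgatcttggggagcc
TNFAIP3, chr6:137867009-137867258, plus strand: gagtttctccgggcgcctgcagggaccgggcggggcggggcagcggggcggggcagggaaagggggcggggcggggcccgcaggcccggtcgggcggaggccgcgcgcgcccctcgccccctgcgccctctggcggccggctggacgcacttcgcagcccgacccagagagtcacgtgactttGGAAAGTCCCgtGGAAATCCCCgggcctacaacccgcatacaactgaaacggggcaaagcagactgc

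In CXCL1, CXCL2 and CXCL3 the capitals are the same 11 bases, where both strands match the consensus in overlapping windows, and begin at positions -79, -78 and -79 counted from the start. TNFAIP3 has 2 separate matches, which begin at positions -67 and -55. In the whole window of the table, which also holds the first 50 transcribed bases, 1562 of 27305 promoters (5.72%) held the consensus on either strand. Of the 22 genes of the NF-kB list that were tested and had a promoter in the table, 11 held it. Of the 9 list genes called by either comparison, 4 held it, which are those shown, and CXCL8, NFKB2, IRAK2, TRAF1 and SOD2 had no match in this window. The list was made of known targets, so that share follows from how it was chosen. Of the shared higher genes with a promoter, 17 of 147 held it (11.6%), and of the shared lower genes 15 of 242 (6.20%). The AP-1 element TGANTCA was in 7.76% of all promoters, in 6 of the 147 shared higher and in 20 of the 242 shared lower promoters. The cyclic AMP response element TGACGTCA, bound by factors of the CREB and ATF family, was in 1.98% of all promoters and in 10 of 147 (6.80%) and 5 of 242 (2.07%) of these. A match describes the letters of the window and not a bound site. A site that departs from the pattern by a base is not counted, so a window without a match can still hold one.

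Targets of NF-kB, the transcription factor that inflammatory cytokines and DNA damage can activate, were above mock with both siRNAs more widely than these chemokines. Of 32 genes on the list 27 were tested, 7 of which rose against mock (background 3.59%) and 7 of which rose relative to the other 6 arrays (background 1.41%), while 0 fell in either comparison. This list, like the others below, was chosen with earlier results of these data known, so such counts are not an independent test. Both values were above 0 for 21 of the 27 genes (30.7% of all genes) and both below 0 for 1. The list medians were 0.49 and 0.37, and those of the other 6 arrays ran from -0.14 to 0.08. Without CXCL1, CXCL2, CXCL3 and CXCL8, a choice made after the values were seen, the medians were 0.38 and 0.35.

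By role, the ligands CXCL3 (0.96 and 0.59) and CXCL8 (0.46 and 1.20) lay above their ranges on the other 6 arrays, which ended at 0.44 and 0.09. CXCL3 passed the test against mock and CXCL8 that against the other arrays. CXCL1, CXCL2 and CXCL3 are close paralogues, and signal shared between their probes could not be measured. IRAK2, a kinase of Toll-like and interleukin-1 receptor signalling, was at 0.72 and 1.16 against -0.22 to 0.13 and passed both comparisons (adjusted p = 0.0252 and 0.0113). The feedback inhibitor TNFAIP3 (A20), which removes ubiquitin from this pathway, was at 0.50 and 0.75, and NFKB2, the precursor of the non-canonical subunit, at 0.52 and 0.32. Both passed both comparisons. TRAF1, a signalling adaptor, rose against mock (0.49 and 0.37), and SOD2, the mitochondrial superoxide dismutase, rose relative to the other arrays (0.79 and 1.79). The IL6 values were 0.88 and 3.04 and lay above all other arrays, where the highest was 0.30. With the 2 siRNAs so far apart it did not pass (adjusted p = 0.0964 and 0.07). RELB (1.15 and 0.52) and NFKBIA (0.89 and 0.35) did not pass either comparison.

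**Figure D3:**
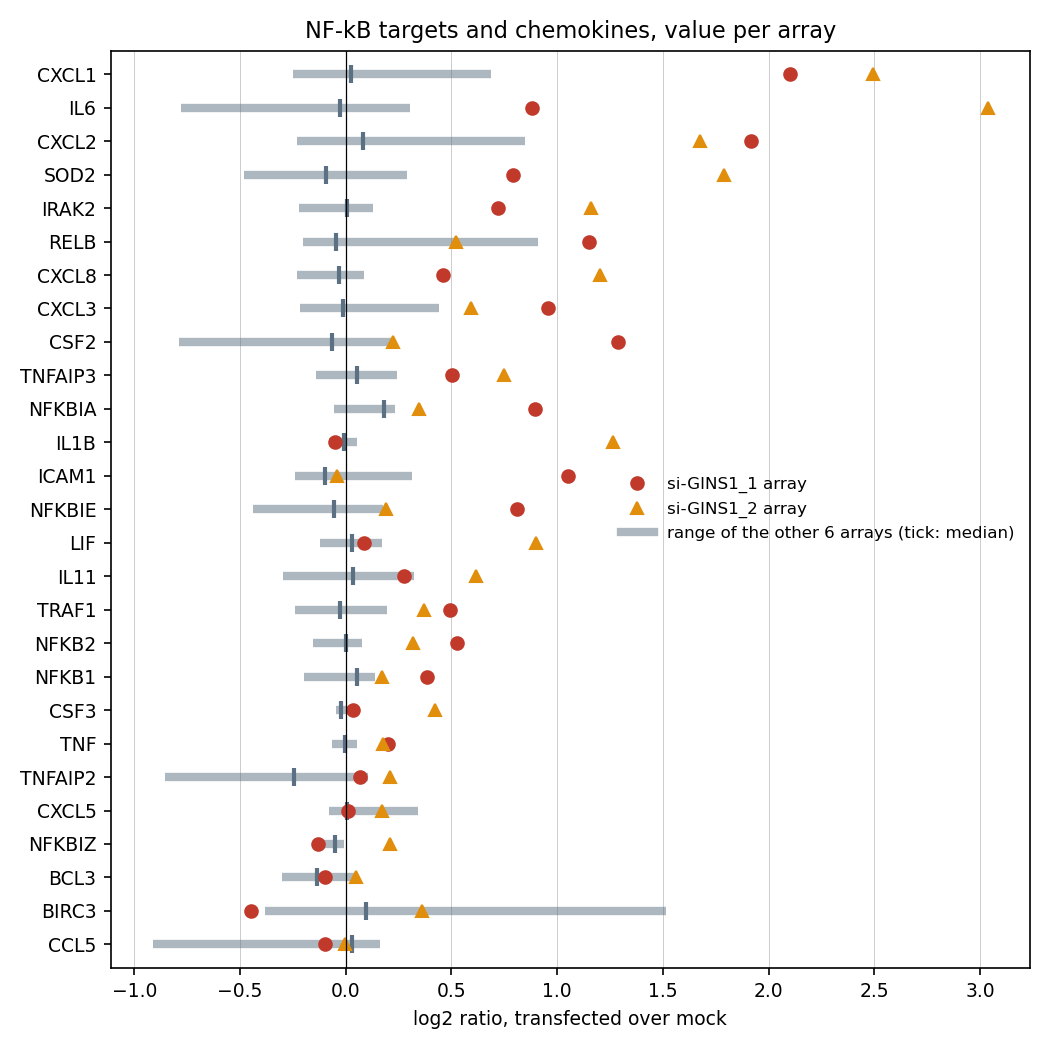
Log2 ratio against mock of the 27 tested NF-kB targets and chemokines, ordered by the mean of both siRNA arrays. Circles and triangles are the siRNA arrays and grey bars the range of the other 6 arrays. Of the 27 genes, 21 have both points to the right of 0, with CXCL1 at the top and CCL5 at the bottom.

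Immediate early genes, which growth factors and stress induce without new protein synthesis, were above mock with both siRNAs in 13 of 20 tested genes (30.7% of all genes) and below in 1. The medians were 0.13 and 0.44, against -0.19 to 0.07 on the other arrays. Of the list, 4 genes rose against mock (background 3.59%), 3 rose relative to the other arrays (background 1.41%), and 0 fell. IER3, an early response gene that is also an NF-kB target, was at 0.89 and 0.997 against -0.38 to 0.21 and passed both comparisons. JUNB, an AP-1 subunit, passed both at 0.47 and 0.31. EGR1, a zinc finger factor, was at 0.85 and 1.18, but one other array reached 0.92 and it passed only against mock. DUSP1, a MAP kinase phosphatase, was at 0.72 and 1.43 against -0.57 to 0.33 and likewise passed only against mock. IER2 (0.27 and 0.60) passed relative to the other arrays only. FOS itself was at 0.08 and 0.14.

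Ligands of the EGF receptor were part of this group of higher genes. AREG, amphiregulin, was at 1.23 and 1.01 against mock, an increase of 2.17-fold, and its second probe averaged 1.02. The other 6 arrays ranged from -1.16 to 0.30, and the comparison with them did not pass (adjusted p = 0.0859). HBEGF was at 0.53 and 0.38 and TGFA at 0.37 and 0.41, both called against mock, although the second TGFA probe averaged -0.15. The call of HBEGF held in 4 of 8 alternative settings and that of TGFA in 2 of 8. Of 11 tested ligands and receptors, 8 were above 0 with both siRNAs (30.7% of all genes) and 3 rose against mock (background 3.59%). Their medians of 0.29 and 0.17 lay above the -0.08 to 0.03 of the other arrays. EGFR itself was at 0.29 and 0.81 and did not pass (adjusted p = 0.0938 and 0.0578).

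Stress genes were represented among the first 12 higher genes by ATF3 and ERN1. ATF3, a CREB family factor of the integrated stress response, was at 1.001 and 1.76 against -0.35 to 0.29, while its 3 other probes averaged 0.06 to 0.26. ERN1 (IRE1), the endoplasmic reticulum sensor that splices XBP1, was at 0.76 and 0.97, and its second probe averaged 0.08. No further gene of the ATF4 list of 15 tested genes passed, and its medians were -0.15 and 0.03, or 0.26 and 0.29 with median centring. In the list of ER chaperones and unfolded protein response genes, ATF6 (0.36 and 0.38) was the other gene of 19 that rose against mock (background 3.59%). The list medians were 0.43 and -0.16, and with median centring 1.06 and 0.10.

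The remaining higher genes had varied roles. ABHD5, a co-activator of triglyceride lipase, was at 1.07 and 1.20 against -0.21 to 0.42. USP36, a nucleolar deubiquitinase, was at 0.99 and 1.14 against -0.10 to 0.53. TMEM132A, a membrane protein, was at 0.94 and 0.74 against -0.55 to -0.05. As the rule for naming required, all 3 were above every other array with both siRNAs. DPH3, a factor in diphthamide synthesis, was at 1.78 and 1.07, and DPH3P1, its near-identical retrocopy, at 1.52 and 1.14, so their signals cannot be assigned to one or the other. The second DPH3 probe averaged 0.45. HES4, a Notch-responsive repressor, was at 1.08 and 0.98 but reached 0.90 on one other array (adjusted p = 0.114 relative to the other 6). ENST00000448345, a transcript without a gene symbol, was at 0.93 and 1.25.

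Replication genes did not follow GINS1 in a shared direction. Of the 12 GINS and CMG helicase genes, GINS1 was the only one called against mock. Over all genes tested, both values were below 0 for 27.4% and above 0 for 30.7%, so opposite signs were common. The share of all genes above 0 with si-GINS1_1 and below 0 with si-GINS1_2 is not given here. For 9 of the 12 the value was above 0 with si-GINS1_1 and below 0 with si-GINS1_2, and the list medians were 0.58 and -0.79. The GINS subunits GINS2 (1.21 and -1.07), GINS3 (0.83 and -0.47) and GINS4 (0.94 and -0.71) had this pattern, as had CDC45 (0.75 and -1.63). MCM6 (-0.30 and -0.89) and MCM3 (-0.22 and -0.87) were below 0 with both. MCM6 lay below the 0.01 to 0.17 of the other 6 arrays and was called relative to them (adjusted p = 0.0354), but not against mock (adjusted p = 0.0853).

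The other replication lists had the same opposite medians. They were 0.32 and -0.17 for 19 origin licensing and firing genes, and 0.39 and -0.62 for 29 genes of DNA synthesis and nucleotide supply. For 18 replication checkpoint genes they were 0.31 and -0.10. With median centring the last value turned to 0.02, which is -0.06 relative to the median of all genes in that setting. In these lists 15, 21 and 9 genes were above 0 with si-GINS1_1 and below 0 with si-GINS1_2. Examples are CDT1, the licensing factor, at 1.36 and -0.56, and TK1, the thymidine kinase of S phase, at 0.97 and -2.03. Such medians were not confined to replication lists. They were 0.25 and -0.22 for proteasome, 0.43 and -0.16 for ER chaperone and 0.14 and -0.08 for respiratory chain genes. In these, 13 of 24, 11 of 19 and 5 of 22 genes were above 0 with si-GINS1_1 and below 0 with si-GINS1_2. RFC1, the large subunit of the clamp loader, was the 1 gene of the DNA synthesis list that rose against mock (background 3.59%), at 0.46 and 0.38, but it did not pass relative to the other arrays (adjusted p = 0.0526). From such bulk RNA, fewer cells in a cell cycle phase and less RNA per cell cannot be told apart.

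Against this divided background a few cell cycle regulators fell with both siRNAs. CCND1, cyclin D1, which starts G1 progression with CDK4 and CDK6, was at -1.44 and -1.01 against -0.41 to 0.01, with a difference from the other arrays of -1.02 (adjusted p = 0.0105). CDKN2C (p18), an inhibitor of the same kinases and an E2F target, was at -1.13 and -1.41 against -0.13 to 0.33 (difference -1.35, adjusted p = 0.00442). CCNA2, cyclin A2, which drives S phase and entry into mitosis, was at -0.69 and -0.73 against -0.05 to 0.35 (difference -0.83, adjusted p = 0.0123). WEE1, the kinase that restrains CDK1, was at -0.67 and -0.79 against -0.12 to 0.40 (difference -0.77, adjusted p = 0.0222). For these 4 genes both siRNA arrays were below all 6 other arrays, and each also passed against mock.

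The lists they belong to were otherwise split. Of 21 G1/S genes, 2 fell against mock (background 3.89%), 0 rose, and 14 had the opposite signs described above, among them E2F1 at 1.06 and -0.87 and E2F2 at 1.33 and -1.11. The kinase inhibitor CDKN1B was at 0.89 and -0.84. Of 20 mitotic and G2/M genes, 2 fell against mock (background 3.89%), 3 fell relative to the other arrays (background 2.36%) and 16 had opposite signs. CENPE, a kinetochore motor, was at -0.64 and -0.39 and passed both comparisons. CENPF, a kinetochore protein, was at -0.19 and -0.70 against 0.16 to 0.61 and passed relative to the other arrays. The sign of its mean against mock turned to 0.075 with median centring, where the median gene lay at 0.21 and 0.08. The proliferation marker MKI67 was at 0.22 and -1.14. GADD45A, a growth arrest and DNA damage gene, rose at 0.77 and 0.63 and passed both comparisons, but not against mock with median centring.

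**Figure D4:**
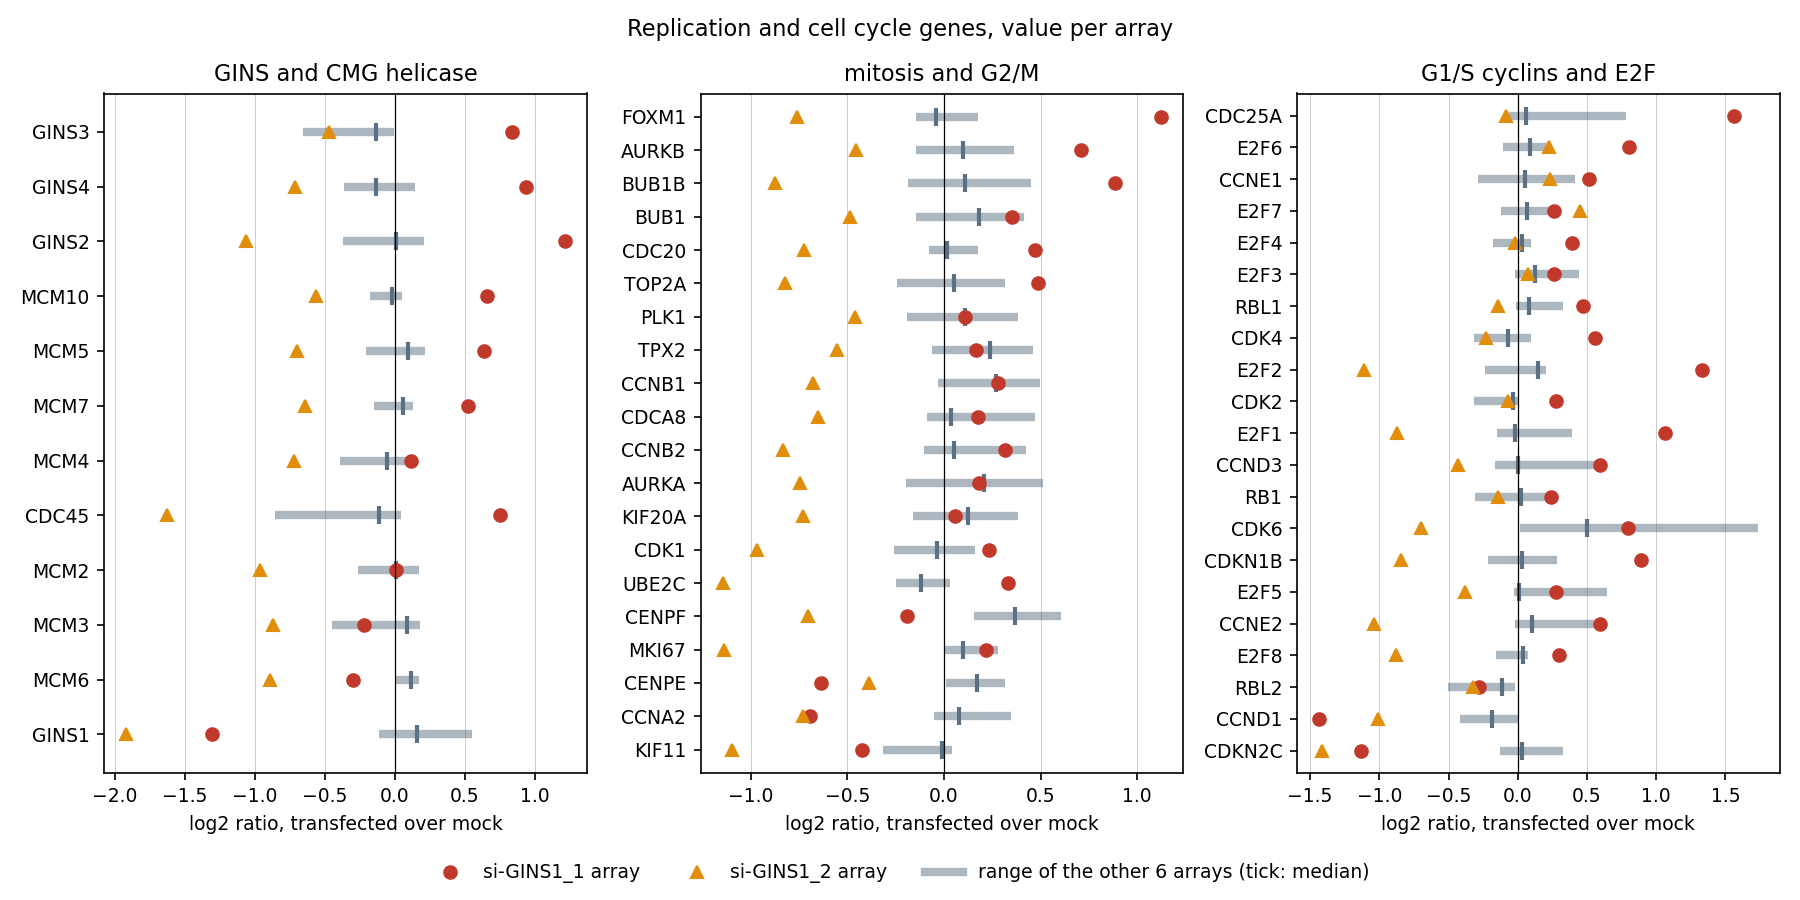
Log2 ratio against mock for the tested genes of 3 lists, in order of the mean of both siRNA arrays, with circles for si-GINS1_1, triangles for si-GINS1_2 and grey bars for the range of the other 6 arrays. Most circles lie right and most triangles left of 0. Genes with both points left of their grey bar include GINS1, MCM6, CCNA2, CENPE, CENPF, CCND1 and CDKN2C.

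Targets of p53, the tumour suppressor that is mutated in MDA-MB-231, were near 0 as a list, with medians of 0.04 and 0.02 over 20 genes. CDKN1A (p21) was at -0.00387 and 0.0140. FAS, a death receptor, at 0.66 and 0.51 and AEN, a nuclease, at 0.90 and 0.57 rose against mock and BBC3 (PUMA) fell, at -0.60 and -0.79. None of these 3 passed relative to the other arrays. SESN2 (0.33 and 0.19) was called in that comparison only.

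Components of RNA interference were included because siRNAs load onto Argonaute proteins. Of 13 tested genes 4 rose against mock (background 3.59%) and 2 relative to the other arrays (background 1.41%). AGO2, the slicing Argonaute, was at 0.43 and 0.48 against -0.18 to 0.06, and TNRC6A, its GW182 partner, at 0.78 and 0.58 against 0.04 to 0.33. These 2 passed both comparisons. Their calls against mock were lost with the scanner software's log ratios and with only the siRNA arrays in the fit. That of AGO2 was also lost at a lower background offset. AGO1 was at 0.50 and 0.48, and its second probe averaged 0.02. TNRC6C was at 0.46 and 0.61, inside the 0.36 to 0.82 of the other 6 arrays. The medians of the list were 0.46 and 0.11.

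Innate sensing and interferon genes gave little that was shared. TICAM1, the TLR3 adaptor, was the 1 gene of 12 sensors and adaptors that rose (background 3.59% against mock), at 0.66 and 0.65 against -0.16 to 0.27, and its second probe averaged 0.21. Of 21 interferon-stimulated genes 12 were below 0 (27.4% of all genes) and 2 above 0 with both siRNAs, with medians of -0.33 and -0.18. With median centring 8 were below and 7 above 0, with medians of -0.09 and -0.04. In that setting the median of all genes was 0.21 and 0.08. Relative to it the list medians were -0.30 and -0.12, against -0.34 and -0.19 in the main setting. No gene passed either limma comparison. IFIT1 was at -1.44 and -0.82 while the other 6 arrays spread from -1.28 to 1.30. The list medians of the other arrays ranged from -0.87 to 0.32 and so enclosed those of the siRNAs.

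In the matrix and adhesion groups, TIMP3 was accompanied by TIMP4 (-0.42 and -0.33 against -0.02 to 0.04) and by MMP11, stromelysin 3 (-0.60 and -0.33 against -0.21 to 0.02). All 3 of these fell against mock among 12 tested genes (background 3.89%), and TIMP3 and TIMP4 also passed relative to the other arrays (background 2.36%). The list medians were -0.30 and 0.05, or 0.06 and 0.18 with median centring. ITGA1, an integrin subunit that binds collagen, rose at 0.61 and 0.54 and was the 1 gene called among 23 collagens, laminins and integrins (background 3.59% higher against mock). SNAI2 (Slug), a repressor of epithelial genes, fell at -0.58 and -0.35 in both comparisons, while the related SNAI1 rose against mock at 0.54 and 0.98. CDH1, E-cadherin, which MDA-MB-231 cells hardly express, was lower by at least 1.48-fold against mock, since its siRNA channel was not well above background. It did not pass relative to the other arrays (adjusted p = 0.182).

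Of 19 genes of TGF-beta and YAP signalling 3 fell (background 3.89%) and 2 rose (background 3.59%) against mock. The BMP ligand BMP4 was at -0.53 and -1.03 and its target ID1 at -0.94 and -1.29, and neither passed relative to the other arrays. SMURF1, a ubiquitin ligase that limits this signalling, rose in both comparisons at 0.68 and 0.57. AJUBA was at -0.43 and -0.57. CCN1 (CYR61), a matricellular YAP target, was at 0.49 and 0.72, inside a range that reached 1.83 on another array.

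Sterol and fatty acid synthesis genes were below 0 with both siRNAs for 12 of 21 genes (27.4% of all genes) and above 0 for 1. The medians were -0.27 and -0.24. With median centring these medians became 0.22 and 0.11, which is 0.01 and 0.03 above the median of all genes in that setting, and the other arrays spanned -0.48 to 0.15. LSS, lanosterol synthase (-0.68 and -0.99), and ACACA, acetyl-CoA carboxylase (-0.27 and -0.35), passed against mock and not relative to the other arrays. The second LSS probe averaged 0.69, and the ACACA mean was 0.18 with median centring.

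Among the remaining lists the shared calls were few. ENO1, the glycolytic enolase, fell in both comparisons at -1.22 and -0.84 against -0.46 to 0.02, and was lost against mock with median centring. It was the 1 call among 16 hypoxia and glycolysis genes (background 3.89% lower against mock). Of 24 proteasome genes 3 fell against mock (PSMA3, PSMA4 and PSMC6, background 3.89%). PSMC6 at -0.35 and -0.23 also passed relative to the other arrays (background 2.36%). With median centring the means of PSMA3 and PSMC6 were above 0, at 0.17 and 0.11, where the median gene lay at 0.21 and 0.08. The 6 tested carboxypeptidases and convertases, which include CPD, had medians of -0.25 and -0.04. With median centring the second turned to 0.02, which is -0.06 relative to the median of all genes in that setting. CTSZ, a lysosomal cathepsin, fell against mock at -1.20 and -1.03, although its second probe averaged -0.24. RPL8 and RPL18 rose against mock among 24 ribosomal protein genes and UQCRC2 among 22 respiratory chain genes (background 3.59%), with none of these called relative to the other arrays. No gene of 16 cytosolic heat shock genes was called by limma in either comparison.

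**Figure D5:**
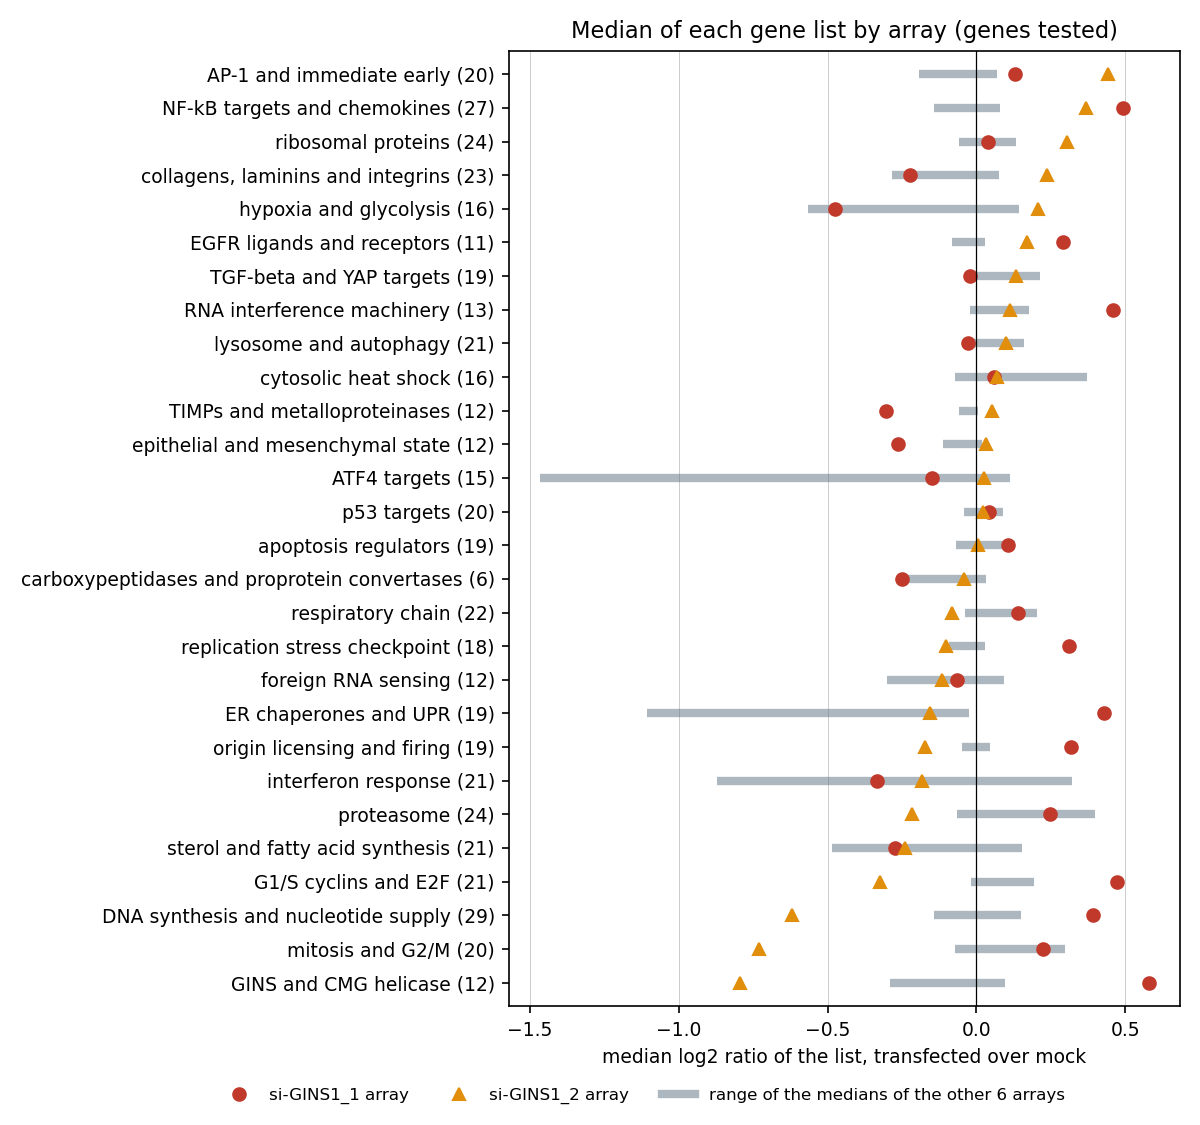
Median log2 ratio of each of 28 gene lists, with the number of genes tested in parentheses, for si-GINS1_1 (circles) and si-GINS1_2 (triangles), and grey bars for the range of the medians of the other 6 arrays. Both points lie right of the bar for the NF-kB, AP-1 and EGFR lists. The lists of the CMG helicase, origin licensing, DNA synthesis, G1/S and mitosis have their points on opposite sides of 0. So have other lists, among them those of the proteasome, ER chaperones and respiratory chain.

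Among the 24 genes named by rank, 8 also passed against mock with the scanner software's log ratios, namely TIMP3, LBR, SLC26A2, CASK, PLEKHG4, CPD, lnc-AC016745.1-2 and CXCL1. All 24 passed with median centring, a lower background offset, no background correction, an intensity trend and all probes tested. They also passed with the cell line as a block. That fit called 10514 of 27796 probes, among them all 1934 of the main fit, so it says nothing about these genes in particular. None passed with only the 2 siRNA arrays in the fit. Of the genes named from their lists, CDH1, CPD, CXCL1, PDGFRB and TIMP3 were called against mock with the scanner software's log ratios. Median centring ended the calls against mock of GADD45A, CENPE, BBC3, FAS, AEN, TIMP4, AJUBA, BMP4, ID1, LSS, ENO1, PSMA4, JUNB and CTSZ. A background offset of 10 ended those of RFC1, AGO1, AGO2, ATF6, ACACA, UQCRC2, RPL8, RPL18, PSMA3, PSMC6, TGFA and HBEGF. With all non-control probes tested, CXCL3, TNFAIP3, TRAF1, MMP11, SNAI1 and DUSP1 were among those whose calls were lost.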

How the data were processed

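Total RNA of 8 samples was labelled with Cy5 (transfected) and Cy3 (mock) and hybridised to Agilent two-colour arrays (hg19 probes). The authors deposited scanner output of Agilent Feature Extraction 11.5.1.1, and the spot intensity and background columns of these deposited files were used. The deposited table of the series holds log10 ratios identical to the scanner software's and served as an alternative. Per array 62976 spots were read, of which 2075 were controls. Probes above background numbered 24983 to 29687, outlier spots (left out) 112 to 194, and saturated spots 0. The number of arrays, not counting error, limits the precision.

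Background was corrected by normexp with an offset of 50, ratios were loess-normalised within arrays, and spots of a probe were averaged (limma 3.58.1, R 4.3.3). Of 58201 probes, 27796 were tested. Of 33080 probes with a RefSeq accession, 31104 were matched to current symbols. Against mock, 5 group coefficients were fitted to all 8 arrays (3 residual degrees of freedom, 1 for the siRNA pair and 1 for each miR-139 strand). The second fit set 2 arrays against 6 (6 residual degrees of freedom). P-values were Benjamini-Hochberg adjusted over all probes tested. On simulated data over 27796 probes the first fit recovered 86% of changes of 1 log2 unit and 99% of changes of 2. The second recovered 88% and 98%. The simulated noise held only the spread within groups, without the differences among the other lines and miRNAs that enter the second fit. The shares of the second fit are therefore not those of the real comparison.

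A gene was named by rank if it passed against mock and lay outside the range of the other 6 arrays on both siRNA arrays, in order of the smaller distance from their median (12 in each direction), or as a called member of 1 of 35 gene lists. The brightest probe stood for a gene, also where 10862 genes had several. Lower bounds (at least N-fold) set the brighter channel's mean against the higher of the dim probe's signal and the lowest signal well above background. The members and gene lists were chosen with earlier results of these data known. Alternatives changed the background correction, the scaling, the filter, the fit, the arrays and the choice of probe. Results for a few genes are not reported here.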

Additional observations from a re-analysis of the deposited data

How the results depend on the processing

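With the scanner software's log ratios, 75 probes were called for si-GINS1 against mock (in place of 1934) and 146 for si-GINS1 minus the other 6 arrays (in place of 976), the shared lower and higher genes were 691 and 591, and the GINS1 log2 ratio was -1.87 (limma adjusted p = 0.056). Median centring gave 2975 probes against mock and 106 shared lower and 1075 shared higher genes. It turned the means of CENPF, ACACA, PSMA3 and PSMC6 to 0.075, 0.18, 0.17 and 0.11, with the median gene at 0.21 and 0.08. A normexp offset of 10 gave 579 and 297 shared genes, and a threshold of 1 log2 unit 48 and 10. Without background correction the shared lower genes were 542. In the fit of only the si-GINS1 arrays 0 probes were called and GINS1 stayed at -1.61 (adjusted p = 0.523), a fit with 1 residual degree of freedom. With the cell line as a random block 10514 were called. In that fit the estimated correlation was -0.67, and the siRNA pair forms both a group and a block. The cause was not tested.

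Leaving out 1 siRNA array gave 6672 (without si-GINS1_1) to 9392 (without si-GINS1_2) probes against mock, and GINS1 at -1.92 to -1.31. The lone array is then assumed to vary like the other groups. For the comparison with the other 6 arrays the range over all single arrays left out was 350 to 3656. The count was 1951 without si-GINS1_1 and 3656 without si-GINS1_2, and it fell to 588 and 540 without the A498 arrays of miR-139-5p and miR-139-3p and to 381 and 350 without those of 786-O. With both A498 arrays left out it was 139, and with both 786-O arrays 27. The cause was not tested. No paired analysis was possible because the 2 siRNA arrays carry different siRNAs and their numbers pair them with no array of another group.

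The precision is limited by 2 siRNA arrays of different siRNAs, by dyes that were not swapped and by the absence of a control siRNA among the samples analysed here.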
